A study of Mus musculus with 6 samples.

Results

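Cathepsins are proteases of lysosomes and cystatins are their protein inhibitors, and the expression of 10 such genes was examined on arrays of sorted dermal fibroblasts. The genes were Ctsb, Ctsc, Ctsd, Ctsh, Ctsk, Ctsl, Ctss, Ctsz, Cst3 and Cstb. They were taken as the 21 probe sets, of 45037 that are not controls, whose platform annotation names 1 of these genes and no other. The CAF (cancer-associated fibroblasts) were isolated from ears with visible dysplasia of K14-HPV16 mice aged 4 months, which carry early genes of human papillomavirus type 16 under the keratin 14 promoter, active in basal keratinocytes and not in fibroblasts. Normal dermal fibroblasts (NDF) came from normal ears of FVB/n mice of the same age without the transgene. The mice of both groups were male, and both groups of cells were sorted as positive for PDGFRα, a growth factor receptor of fibroblasts. There were 3 arrays per group, called biological repetitions in the labels. The protocol names 15 mice per genotype and does not say how they were divided among the arrays, so p-values measure the spread between these arrays, which may be technical.

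Most cathepsins, including B, C, H, K, L, S and Z, cut with a catalytic cysteine, while cathepsin D uses an aspartate. They are made as inactive precursors, sorted to lysosomes by mannose 6-phosphate receptors and activated in the acid lumen, and some are also secreted and can cut collagen, elastin and laminin. Cystatin C, the product of Cst3, is a secreted inhibitor of the cysteine cathepsins, and cystatin B (stefin B), the product of Cstb, is an inhibitor inside the cell. Cathepsin K is a collagenase made by fibroblasts and osteoclasts. Cathepsin S is mainly a protease of antigen-presenting cells, where it degrades the invariant chain of MHC class II.

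Of the 10 genes, Ctss was the one with a large difference between the groups, at 12.6-fold higher in CAF, and it narrowly missed the threshold. The other 9 differed by -0.59 to 0.46 log2 units. In limma over 18193 genes, with 1 probe set per gene, 0 of the 10 had a Benjamini-Hochberg adjusted p under 0.05, while 0.517% of all genes did, 0.489% as higher and 0.0275% as lower in CAF. At an unadjusted p under 0.05, 1 of the 10 was higher, Ctss, and 1 was lower, Ctsh, against 4.93% and 4.02% of all genes. The median difference of the 10 genes was -0.01, and that of all genes was -0.04. All values are log2 intensities from RMA, a method that subtracts background and equalises the arrays, and a difference of 1 is a 2-fold change on that scale. CAF array 3 stood apart from the rest, with a limma array quality weight of 0.167 against 0.818 to 2.56 for the others. The log2 difference between the 3′ and 5′ probe sets of the control gene Gapdh, a sign of RNA quality, was 1.19 to 1.42 in CAF, within the range of the NDF arrays. For the control gene Actb it was 1.58, 1.72 and 1.30 on CAF arrays 1, 2 and 3, against 1.39 to 1.68 in NDF. There CAF array 2 lay above and CAF array 3 below the NDF range.

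**Figure D1:**
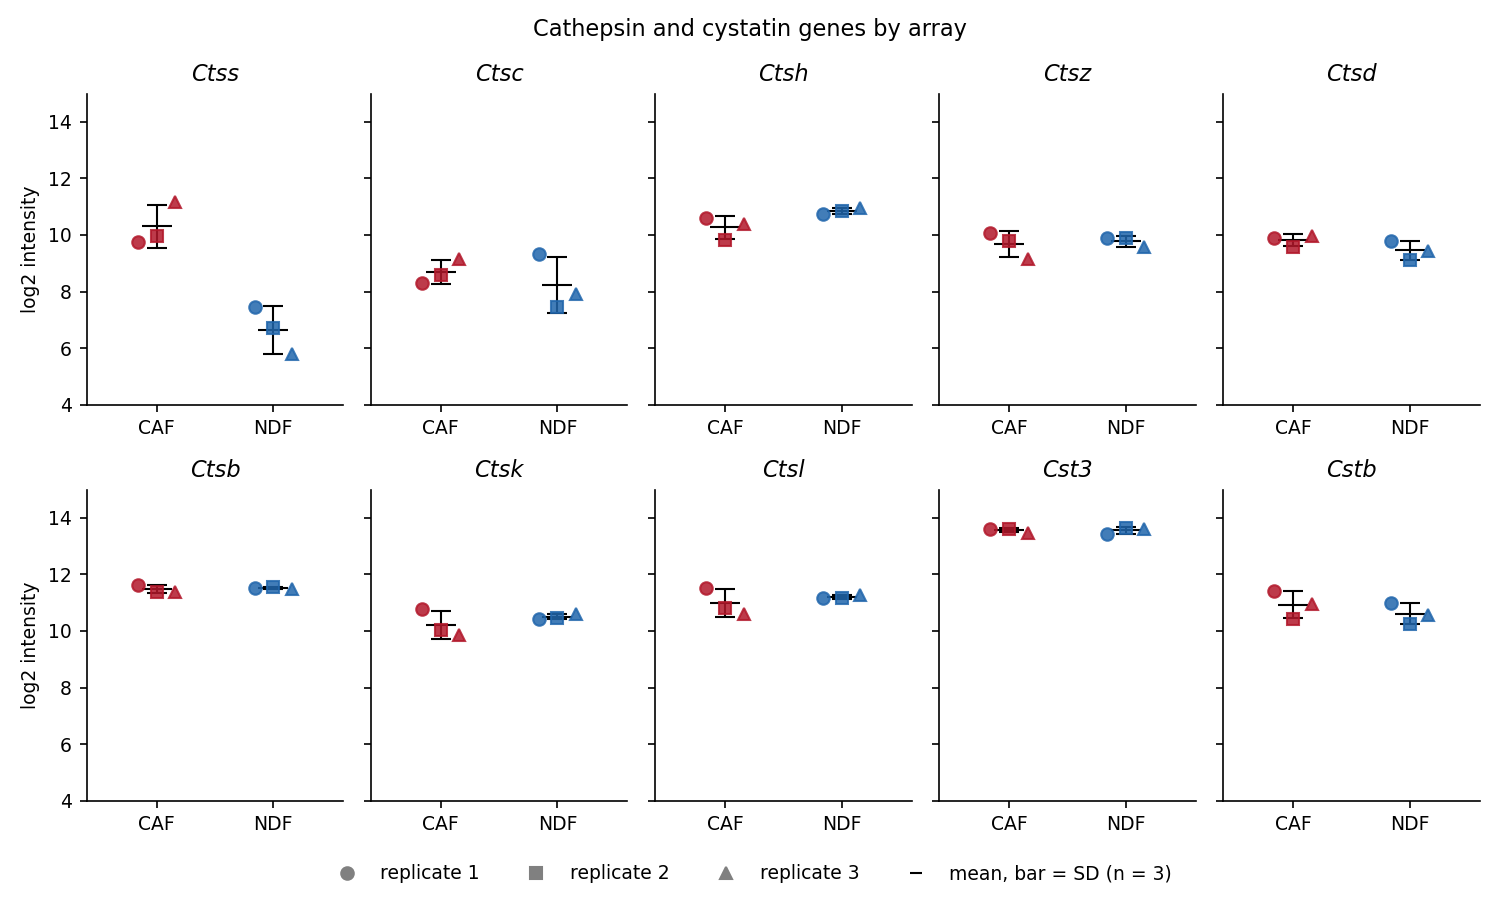
Log2 intensity (vertical axis) of the 10 genes on the 3 CAF arrays (red) and the 3 NDF arrays (blue), with symbols for the replicate numbers and the mean with its SD in black. Ctss lies between 9.75 and 11.18 on the CAF arrays and between 5.78 and 7.47 on the NDF arrays, Ctsh is lower on each CAF array than on any NDF array by a small margin, and the groups of the other 8 genes overlap.

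Promoter sequences are shown for 3 of the genes because of how they lie and how they differed. Ctss, with the large difference, and Ctsk, without one, are neighbours on mouse chromosome 3, with 1 long noncoding RNA gene and 0 protein-coding genes between them in RefSeq. Ctsd is shown as a cathepsin gene whose promoter carries the E-box of the lysosomal gene network. The sequences are from RefSeq, build GRCm38.p6, and the set of promoters used here held 7 of the 10 genes. Each sequence runs from 250 bases before to 50 bases after the start of the gene, 5′ to 3′ on its own strand. Ctss lies at chr3:95526536-95526835 (+ strand), Ctsk at chr3:95498960-95499259 (+ strand) and Ctsd at chr7:142387778-142388077 (- strand). Capitals mark matches, on either strand, to 4 searched motifs, which are CACGTG (the core of the CLEAR element that TFEB family factors bind), GAGGAAGT (a PU.1-type ETS site), the interferon response element (GAAA, any 2 bases, GAAA) and TGACTCA (an AP-1 site).
Ctss: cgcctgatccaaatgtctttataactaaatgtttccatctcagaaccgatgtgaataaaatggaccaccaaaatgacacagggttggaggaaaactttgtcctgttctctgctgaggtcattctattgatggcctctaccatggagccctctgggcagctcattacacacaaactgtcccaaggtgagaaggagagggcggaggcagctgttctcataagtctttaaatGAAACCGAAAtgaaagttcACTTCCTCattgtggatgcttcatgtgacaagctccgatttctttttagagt
Ctsk: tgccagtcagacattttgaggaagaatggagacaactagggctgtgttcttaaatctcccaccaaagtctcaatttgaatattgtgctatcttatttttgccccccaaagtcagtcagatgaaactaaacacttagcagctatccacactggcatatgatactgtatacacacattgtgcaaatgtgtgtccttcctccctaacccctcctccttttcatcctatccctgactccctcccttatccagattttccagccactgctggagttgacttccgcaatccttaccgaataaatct
Ctsd: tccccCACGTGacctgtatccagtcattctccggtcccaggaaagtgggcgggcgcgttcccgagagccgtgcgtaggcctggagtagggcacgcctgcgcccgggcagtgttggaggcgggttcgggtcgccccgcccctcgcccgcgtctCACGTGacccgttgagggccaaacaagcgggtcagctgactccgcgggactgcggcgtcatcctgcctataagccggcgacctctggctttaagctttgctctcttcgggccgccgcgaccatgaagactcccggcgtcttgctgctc

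The Ctss promoter held the interferon response element from base -21 to -12 and GAGGAAGT, on the opposite strand, from base -2 to 6 around the start. Of all 32851 promoters in the table, 3.44% held the first motif and 3.2% the second, and the 2 matches in Ctss do not overlap. GAGGAAGT was also found in Ctsc, a gene whose groups overlapped. CACGTG was found in Ctsd, at 2 places, and in Ctsl, and in 7.15% of all promoters. TGACTCA, found in 5.2% of all promoters, was in 0 of the 7 genes. The Ctsk window held none of the 4 motifs. A match of letters is a description of the sequence and does not show that a factor binds there.

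Ctss encodes cathepsin S, which keeps its activity at neutral pH. It measured 9.75, 9.97 and 11.18 on CAF arrays 1, 2 and 3, against 7.47, 6.70 and 5.78 on NDF arrays 1, 2 and 3. The lowest CAF array was thus more than 2 log2 units above the highest NDF array, with CAF array 3 the highest and NDF array 3 the lowest. The mean was 10.30 ± 0.77 in CAF and 6.65 ± 0.84 in NDF (SD, n = 3 each), a difference of 3.65 ± 0.53 (SE) or 12.6-fold, with a 95% interval of 5.24-fold to 30.1-fold. The limma adjusted p was 0.0503, the 95th smallest p of all genes where 94 passed. The difference stayed between 3.21 and 4.06 over all 16 alternatives, while the adjusted p ran from 0.0099 to 0.213, with 8 alternatives under the threshold. Without CAF replicate 3 it was 3.21 with an adjusted p of 0.0486. With any other single array left out it missed the threshold (adjusted p = 0.0808 to 0.213). Every CAF array lay above every NDF array for 6.78% of all genes. The array carries 1 probe set for Ctss, so no second probe set bears on this value.

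The change of Ctss was also set against that of the other 9 genes within each array. The log2 difference between Ctss and another gene was larger in CAF than in NDF by 3.19 (against Ctsc) to 4.24 (against Ctsh). Against its neighbour Ctsk the change was 3.93. These values are a description with no test, since all 9 rest on the same Ctss values.

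Genes of macrophages and dendritic cells, which make cathepsin S, had higher values in CAF as well. Of 24 such markers 23 were measured, 4 rose, 18 were above NDF on each CAF array, and the median difference was 2.37. Of all genes 0.489% rose and 6.78% were above NDF on each CAF array. The summed linear intensity of the markers was 3736 to 11450 in CAF and 847 to 1377 in NDF. The array medians of the list were 6.45, 6.82 and 7.95 on CAF arrays 1 to 3, against 5.08, 4.69 and 4.76 on NDF arrays 1 to 3. CAF array 3, the highest for Ctss, was the highest of the 6 arrays for 14 of the 23 markers and for 34.7% of all genes. CAF array 2 was the highest for 7 markers and for 10.9% of all genes. Among these 7 were 3 of the 4 that rose (Tyrobp, Ptprc and Cd14, the last named after its values were seen). In bulk samples more cells of a type and more RNA per cell cannot be told apart, and the part of such cells in the Ctss value was not tested. No marker can be at 0 on this scale, but the leukocyte gene Ptprc (CD45) was at 3.65 to 4.36 on the NDF arrays, below the array medians of 4.73 to 4.87, and at 7.83 to 9.44 on the CAF arrays. That difference of 4.33 (adjusted p = 0.0197) was 0.89 (adjusted p = 0.702) on its other probe set, used when cross-matching probe sets are left out, and it missed the threshold without NDF replicate 1, 2 or 3 (adjusted p = 0.101, 0.107 and 0.114).

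Single myeloid genes varied in the size of their difference. The signalling adaptor Tyrobp rose to 7.66, 8.68 and 8.59 in CAF, against 4.99, 4.40 and 4.59 in NDF (adjusted p = 0.0134), and it missed the threshold without NDF replicate 1, 2 or 3 (adjusted p = 0.0564, 0.0879 and 0.0942). The lysosomal glycoprotein gene Cd68 was at 6.06, 6.11 and 7.95 in CAF, against 5.62 at most in NDF (adjusted p = 0.595). The macrophage receptor genes Csf1r and Adgre1 differed by 0.67 and 1.24 (adjusted p = 0.588 and 0.581). For Cd68, Csf1r and Adgre1 most of the difference lay on CAF array 3. Csf1r was at 7.82, 7.78 and 8.72 on CAF arrays 1, 2 and 3, against a mean of 7.44 in NDF. Lysozyme, the product of Lyz2, is abundant in myeloid cells, and the gene was at 9.26, 9.32 and 11.46 in CAF, against 7.78, 5.86 and 5.84 in NDF (adjusted p = 0.151).

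The substrate and partners of cathepsin S in antigen presentation were higher on the same arrays, though none passed the test. Cd74, which encodes the invariant chain, was at 7.82, 8.37 and 9.78 in CAF, against 6.64, 5.29 and 6.37 in NDF, a difference of 2.56 ± 0.57 (adjusted p = 0.164). The MHC class II chain genes H2-Aa and H2-Ab1 differed by 2.70 ± 0.50 and 2.46 ± 0.36 (adjusted p = 0.0992 and 0.0503). These 3 genes were chosen after their values were seen, and they are already counted in the macrophage and dendritic cell list above. Each had all CAF arrays above all NDF arrays, as 6.78% of all genes did.

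**Figure D2:**
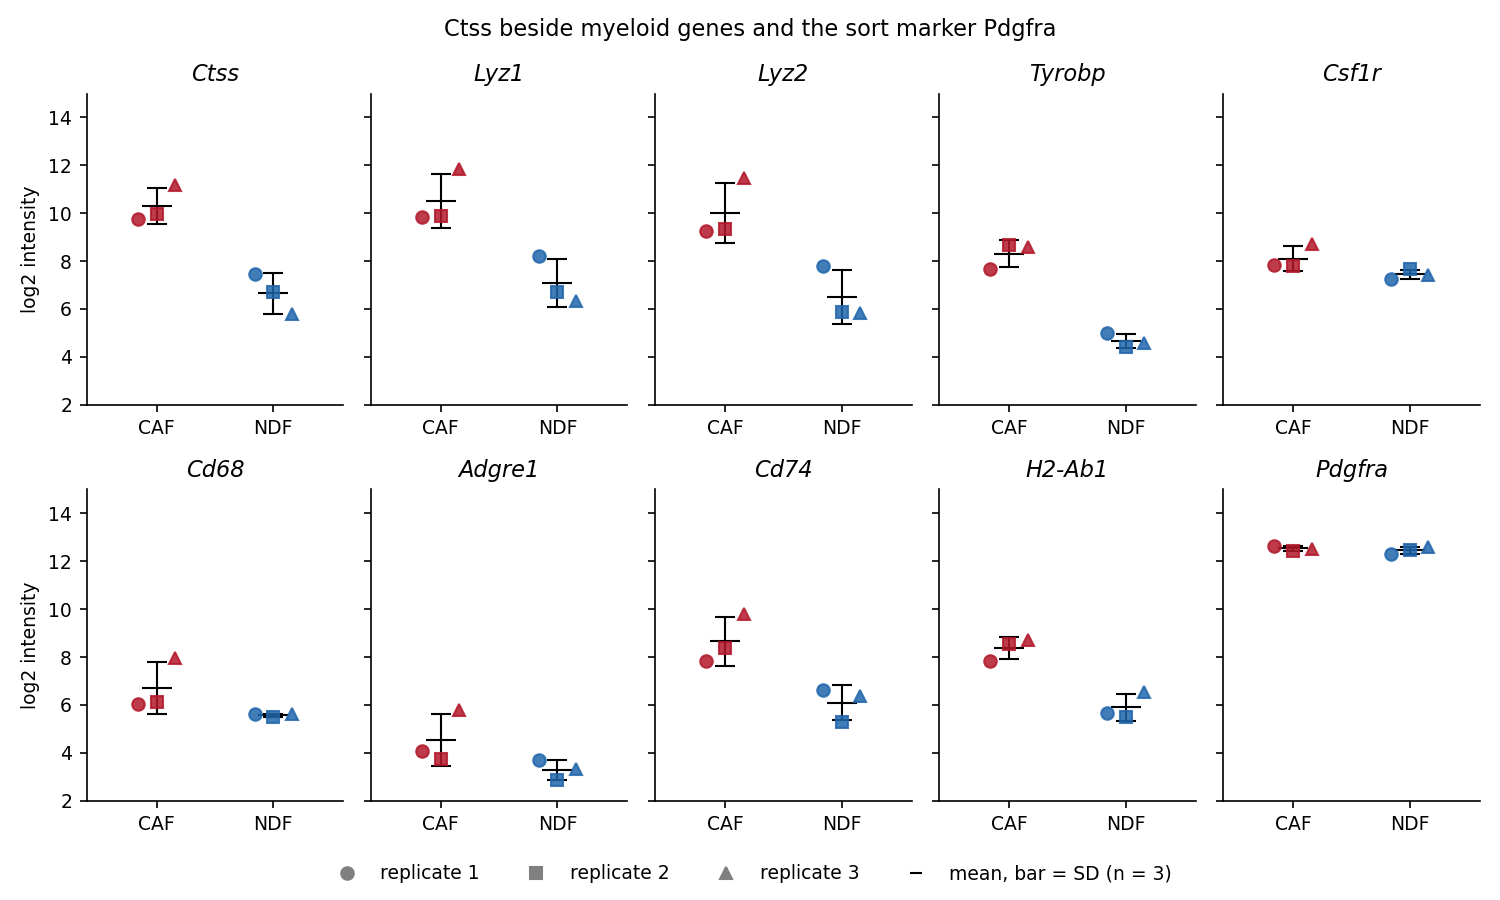
Log2 intensity (vertical axis) of Ctss, 8 genes of myeloid and antigen-presenting cells and the sort marker Pdgfra on the CAF arrays (red) and NDF arrays (blue), with the mean and SD in black. Ctss, Lyz1 and Lyz2 are highest on CAF array 3 and, among NDF arrays, on array 1, while Pdgfra is at 12.54 ± 0.11 in CAF and 12.46 ± 0.15 in NDF.

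Ctsh encodes an aminopeptidase that is also known from lung and immune cells, and it was the one member with lower values on each CAF array. It was at 10.61, 9.82 and 10.37 in CAF, against 10.75, 10.86 and 10.95 in NDF. The gap between the closest arrays was small, and CAF array 2 was the lowest. The difference was -0.59 ± 0.24 (SE), with a 95% interval of -1.16 to -0.01, and it did not pass the test over all genes (adjusted p = 0.549). Its other probe set differed by -0.72 and also had each CAF array below each NDF array, which held for 7.14% of all probe sets. Without CAF replicate 2 the difference was -0.36, and over the arrays left out in turn it ran from -0.76 to -0.36.

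Ctsb, Ctsl and Ctsk, the cysteine cathepsins most often linked with matrix breakdown, overlapped between the groups. Ctsb was at 11.63, 11.39 and 11.39 in CAF, against 11.50, 11.55 and 11.48 in NDF. The difference of -0.04 had a 95% interval of -0.44 to 0.36, or 0.737-fold to 1.28-fold, the second narrowest of the 10. The 4 other Ctsb probe sets differed by -0.30 to 0.13, and the one at 0.13 lay below the array median on all 6 arrays. The lysosomal endopeptidase gene Ctsl was at 11.53, 10.80 and 10.59 in CAF, against 11.16, 11.16 and 11.27 in NDF, a difference of -0.22 (95% interval -0.87 to 0.42). Its second probe set, which lay below the array median on 5 of the 6 arrays, differed by 0.34. The collagenase gene Ctsk was at 10.79, 10.02 and 9.85 in CAF, against 10.43, 10.47 and 10.60 in NDF, a difference of -0.28 (95% interval -0.93 to 0.37). For Ctsl and Ctsk the CAF arrays spread to both sides of the NDF arrays, with CAF array 1 the highest and CAF array 3 the lowest of the 6. The SD of Ctsk was 0.50 in CAF and 0.09 in NDF, and that of Ctsl was 0.49 in CAF and 0.06 in NDF.

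Ctsc encodes dipeptidyl peptidase I, which activates serine proteases of neutrophils and mast cells. It was at 8.32, 8.59 and 9.14 in CAF, against 9.32, 7.45 and 7.91 in NDF. NDF array 1 was the highest of the 6, and the interval of the difference was the widest among the other 9 genes, at -0.73 to 1.64 around 0.46 (adjusted p = 0.889). Without NDF replicate 1 the difference was 1.00, and it did not pass the test (lowest adjusted p with 1 array left out 0.580). Its other 2 probe sets differed by -0.54 and -0.04. They were less bright, with means of 5.32 and 4.06 over the 6 arrays against 8.46 for the one used. The one at -0.04 lay below the array median on 5 arrays.

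Ctsz, a carboxypeptidase gene, and Ctsd, the aspartic protease gene, also overlapped between the groups. Ctsz was at 10.09, 9.79 and 9.16 in CAF, against 9.90, 9.88 and 9.56 in NDF, a difference of -0.10 (95% interval -0.76 to 0.55). Its 2 other probe sets differed by -0.05 and 0.08. Ctsd was at 9.89, 9.58 and 9.98 in CAF, against 9.78, 9.13 and 9.45 in NDF. Its difference of 0.36 had a 95% interval of -0.19 to 0.91 (adjusted p = 0.765), the upper end of which is 1.89-fold.

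The inhibitor genes did not pass the test either. Cst3 was at 13.61, 13.61 and 13.48 in CAF, against 13.43, 13.63 and 13.62 in NDF. Its difference of 0.01 had the narrowest interval of the 10 genes, -0.39 to 0.41 on the log2 scale or 0.765-fold to 1.33-fold (adjusted p = 0.994). Cstb was at 11.41, 10.44 and 10.95 in CAF, against 10.98, 10.24 and 10.58 in NDF, a difference of 0.33 (95% interval -0.41 to 1.08) that overlapped between the groups. Its second probe set differed by 0.25. A p that misses the threshold does not show that the groups were equal, and these intervals give the sizes that the 3 arrays per group leave possible.

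**Figure D3:**
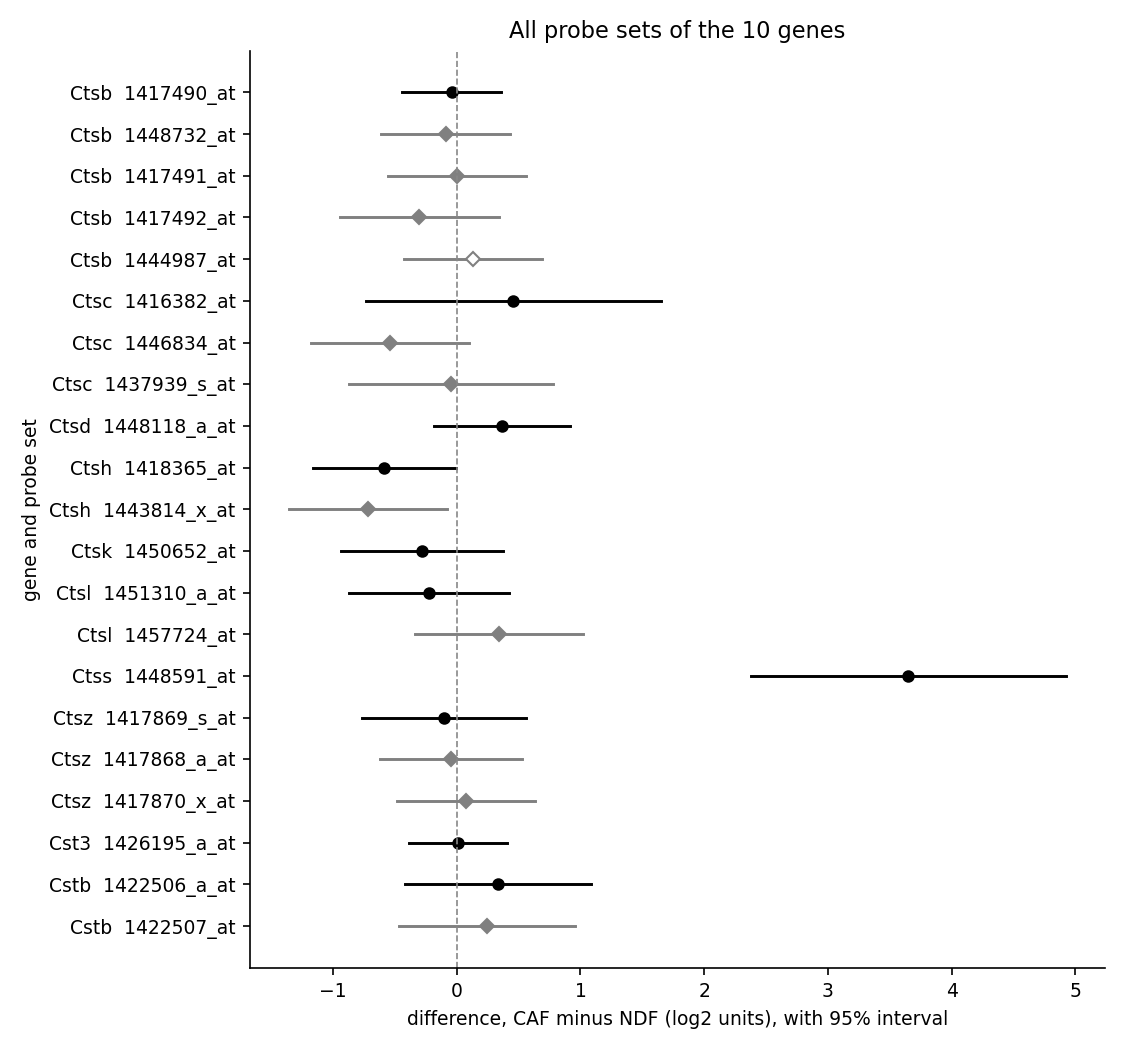
Difference between CAF and NDF in log2 units (horizontal axis) for the 21 probe sets, with 95% intervals from limma fitted over all 45037 probe sets. Black circles are the probe sets used for the gene, gray diamonds are the others, and the open diamond is the 1 probe set below the array median on all 6 arrays. Ctss stands at 3.65, both Ctsh probe sets lie below 0, and the other 18 intervals include 0.

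Tested as probe sets, 0 of the 21 passed in limma, against 0.162% of all 45037 (0.144% as higher and 0.0178% as lower in CAF), and the adjusted p of Ctss was 0.0863. At an unadjusted p under 0.05, 1 was higher and 2 were lower in CAF, against 3.82% and 3.18% of all probe sets. Ctss was the 1 probe set with each CAF array above each NDF array, as 5.69% of all probe sets were. The SD was larger in CAF than in NDF for 6 of the 10, and for 72.0% of all genes. CAF array 1 was the highest of the 6 arrays for 5 of the 10 genes, although it was the highest for 11.2% of all genes.

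Large differences were found among inhibitor genes outside the 10. Of 29 listed cystatins and other inhibitors of cysteine proteases 19 were measured, 2 rose, 0 fell, and the median difference was 0.23. The share of all genes that passed was 0.517%. Csta1, which encodes a stefin A of mice, rose to 7.46, 5.96 and 7.59 in CAF, against 3.02, 3.48 and 3.10 in NDF, a difference of 3.81 ± 0.44 (adjusted p = 0.0252). Ctla2a, whose product resembles a cathepsin propeptide and inhibits cathepsin L-type proteases, rose to 11.11, 11.34 and 10.71 in CAF, against 7.55, 5.09 and 6.52 in NDF. Its difference was 4.67 ± 0.59 (adjusted p = 0.0333).

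Close relatives of these inhibitors differed alike without passing the test. Ctla2b, the near copy of Ctla2a, differed by 2.66 ± 0.42 (adjusted p = 0.0624). The stefin A genes Stfa2l1 and Stfa3, named after their values were seen, differed by 3.89 ± 0.73 and 4.26 ± 0.88 (adjusted p = 0.107 and 0.133). All 3 were higher on each CAF array than on any NDF array, as 6.78% of all genes were. The stefin A genes are near-identical neighbours, as are both Ctla2 genes, so probes may read more than 1 of them and single members are uncertain. The calls also rested on few arrays. When arrays were left out, Csta1 missed the threshold for CAF array 1 (adjusted p = 0.0639) and for NDF array 1, 2 or 3 (adjusted p = 0.123, 0.123 and 0.161). Ctla2a missed it for CAF array 1 or 2 (adjusted p = 0.0861 and 0.101) and for NDF array 1, 2 or 3 (adjusted p = 0.0504, 0.0652 and 0.167).

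Markers of 4 other cell types included genes that rose and had positive median differences, and 0.489% of all genes rose. Mast cell and melanocyte markers also had positive medians (0.76 and 0.23), with 0 genes that rose. Of 12 measured neutrophil markers, of 15 listed, 3 rose, with a median difference of 3.50, and S100a8 was at 12.18 ± 0.47 in CAF and 6.15 ± 1.56 in NDF. Their summed linear intensity was at least 8665 in CAF and at most 780 in NDF. Of 23 measured keratinocyte markers, of 24 listed, 4 rose, with a median of 1.53 and sums of 14717 to 30034 in CAF and 9551 to 10668 in NDF. Of these 23, 21 had a positive difference. The keratin genes Krt6b, Krt6a and Krt16, among the 4 that rose, differed by 6.60, 5.05 and 4.82 (limma adjusted p = 0.00039, 0.00998 and 0.0148). The basal keratin genes Krt5 and Krt14 differed by 1.65 and 2.19 and did not pass (adjusted p = 0.152 and 0.115). Of 16 endothelial markers 1 rose, with a median of 1.49 and sums of 2652 to 4958 in CAF and 1427 to 1898 in NDF. Of 12 measured lymphocyte markers, of 15 listed, 2 rose, with a median of 0.15 and sums of 418 to 1230 in CAF and 251 to 294 in NDF. The part of these cells in the inhibitor values was not tested. The defining fibroblast markers were high in both groups. The sort marker Pdgfra differed by 0.08 (95% interval -0.34 to 0.50), and of 19 measured fibroblast markers, of 20 listed, 0 passed the test in limma and the median difference was -0.27. At an unadjusted p under 0.05, 1 fibroblast marker was higher and 6 were lower in CAF, against 4.93% and 4.02% of all genes, and 6 had each CAF array below each NDF array, against 8.66% of all genes.

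Of the other cathepsins and their relatives 0 of 17 passed the test in limma. Their median difference was -0.05. At an unadjusted p under 0.05, where 4.93% of all genes were higher and 4.02% lower, 2 were higher and 0 lower in CAF. These were the aspartic protease gene Ctse, at 4.55, 5.10 and 5.11 in CAF, against 4.15, 3.75 and 3.62 in NDF (adjusted p = 0.169), and Tinagl1, a secreted relative without protease activity, at 1.09 ± 0.32 (adjusted p = 0.327). The second Ctse probe set showed no such gap, and its CAF and NDF arrays overlapped. Ctsw, a cathepsin of cytotoxic lymphocytes, was at 3.32, 3.98 and 5.43 in CAF, against 3.25, 3.35 and 3.33 in NDF (adjusted p = 0.693), so that CAF array 3 held most of its difference.

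Genes that sort and activate cathepsins gave no call. Of 21 listed, 19 were measured and 0 passed in limma, with a median of -0.06. An unadjusted p under 0.05 was found for 0 genes with higher and 3 with lower values, against 4.93% and 4.02% of all genes. Igf2r, the large mannose 6-phosphate receptor, was at 10.13, 10.39 and 10.24 in CAF, against 10.67, 10.66 and 10.70 in NDF, a difference of -0.42 ± 0.17 (adjusted p = 0.516). Gnptg, a subunit of the enzyme that adds the mannose 6-phosphate tag, and the sorting adaptor gene Gga2 differed by -0.61 and -0.57 (adjusted p = 0.517 and 0.532). For all 3 each CAF array lay below each NDF array, as for 8.66% of all genes. Lgmn, the asparaginyl endopeptidase that trims several cathepsins, was named after its value was seen. It was at 7.05, 6.44 and 5.20 in CAF, against 4.91, 5.64 and 5.11 in NDF, a difference of 1.00 ± 0.48 (adjusted p = 0.629) with overlapping groups.

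Other genes of the lysosome gave no call either. Among all genes, 4.93% were higher and 4.02% lower in CAF at an unadjusted p under 0.05. Of 40 listed hydrolases outside the cathepsins 35 were measured and 0 passed in limma, with 1 lower, 0 higher at an unadjusted p under 0.05 and a median of -0.12. The lower one was Arsb, a sulfatase gene, at -0.73 ± 0.19 (adjusted p = 0.251). Of 18 listed subunits of the vacuolar ATPase, the pump that acidifies lysosomes, 17 were measured and 0 passed, with 1 higher and 0 lower unadjusted and a median of 0.02. That one was Tcirg1, at 0.46 ± 0.19 (adjusted p = 0.538). Of 11 genes of the TFEB family, which drives lysosomal genes, and its regulators 0 passed, with 1 higher and 0 lower unadjusted and a median of -0.03. It was Tfec, a family member of macrophages, at 4.90, 5.55 and 5.51 in CAF, against 4.59, 4.13 and 4.36 in NDF (adjusted p = 0.235).

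**Figure D4:**
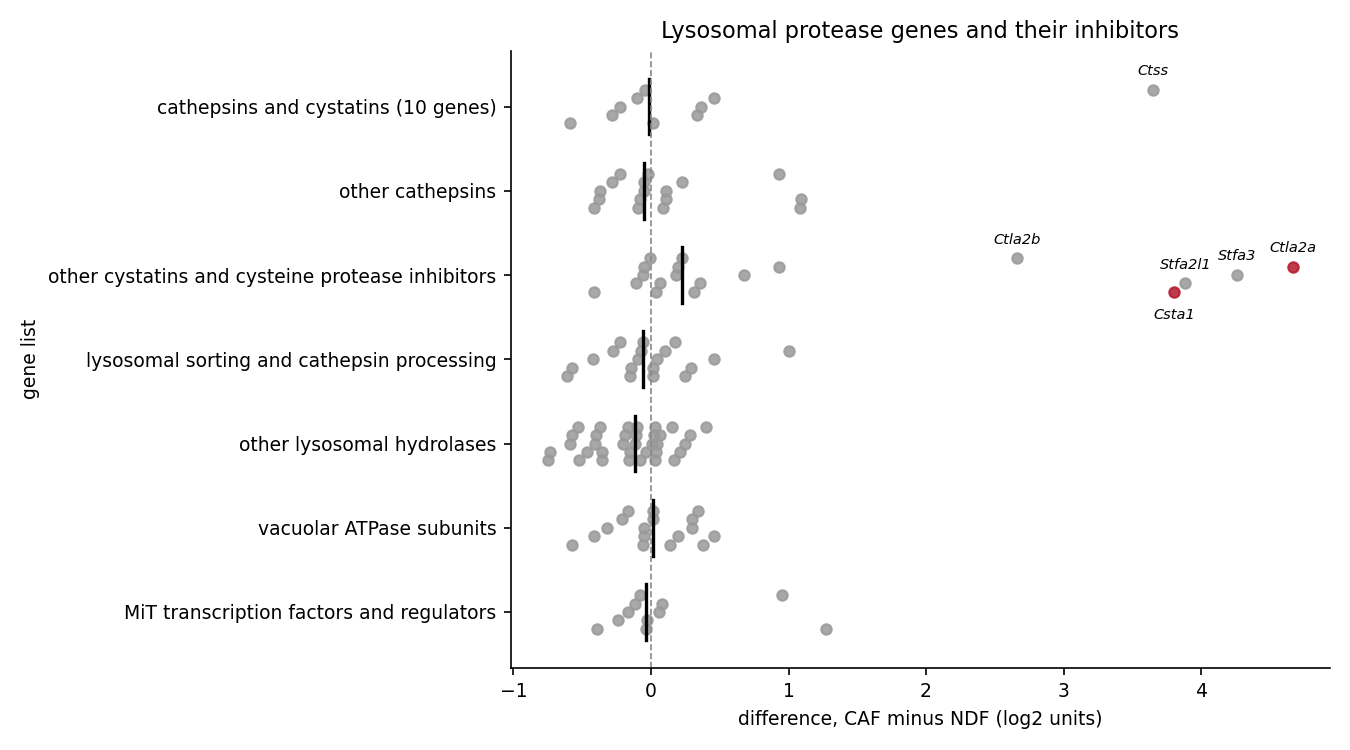
Difference between CAF and NDF in log2 units (horizontal axis) for each measured gene (points) of 7 lists of the cathepsin and lysosome system, with the list median as a black bar and genes past the threshold in red. The named points beyond 2 log2 units are Ctss and 5 inhibitor genes, of which Csta1 and Ctla2a passed, and the list medians lie between -0.12 and 0.23.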

How the data were processed

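Gene expression of 3 CAF and 3 NDF samples was measured with Affymetrix mouse expression arrays, after 1 round of whole transcript amplification per the labels' protocols. The deposited values are log2 intensities per probe set. RMA and GCOS are the tools that the submitters' processing notes list, with versions not given in the sources used here. RMA equalises the arrays, so total intensity is lost. Differences of dim genes are also understated in such values. Of 45101 probe sets 64 are controls, 34945 were annotated to 1 gene, 932 to several and 9160 to none. A gene (18193 in all) was represented by its brightest probe set, by the mean of the 6 arrays.

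The comparison of CAF with NDF used lmFit and eBayes of limma 3.58.1 (two-sided) under R 4.3.3, with group as the only term, and p was adjusted by Benjamini-Hochberg over all genes, or over all 45037 probe sets, with a threshold of 0.05. Standard errors and 95% intervals are the moderated ones. Summed linear intensities are sums of 2 to the power of the log2 values, from the deposited table. The number of arrays limits the precision. Suffixes _x_at, _s_at and _a_at were taken to mark cross-matching probe sets. This went by the name alone, and whether each such probe set matches other genes was not tested. The probe sets used for Ptprc, Ctla2a and Ctsl carry the suffix _a_at. The procedure was tested on simulated data.

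The 10 genes, the lists, the motifs and the tests were chosen with earlier results of these data known. The text names the 10 genes, up to 3 genes with the smallest p of each list, the sort marker, 7 markers of other cells, and for Ctsk, Ctss and Cst3 the 3 genes with the most similar profile. Stfa2l1, Stfa3, Lgmn, Cd14, Cd74, H2-Aa and H2-Ab1 were added after their values were seen. Of the lists, those of mast cell, chondrocyte, melanocyte and osteoclast markers and of matrix substrates are given in the closing section. Alternatives were a replicate block, further normalisations, a filter on dim probe sets, other choices of probe sets, an intensity trend, array weights and leaving out each array. Leaving out both CAF replicate 3 and NDF replicate 1 was added after seeing the data. Plots were made in Python 3.11.15 (matplotlib 3.10.9).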

Additional observations from a re-analysis of the deposited data

How the results depend on the processing

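The 3 arrays per group limit the precision, and the median SE of a difference was 0.25 log2 units. Of all genes 94 passed, against 20 with a replicate block, 155 with an intensity trend, 438 with array quality weights and 5 to 156 with 1 array left out. Deviations of arrays with the same replicate number correlated at -0.15, 0.11 and -0.01, and those with different numbers at -0.11 to 0.12. With 3 arrays per group these values cannot show whether arrays of the same number shared a preparation, and the labels do not say. Of the 10 cathepsin and cystatin genes 1, Ctss, passed with equal array medians, a filter on dim probe sets, the mean of all probe sets, without cross-matching probe sets, with the trend, with the weights, and without both CAF replicate 3 and NDF replicate 1 (an alternative added after seeing the data), and 0 to 1 with 1 array left out. With the replicate block its adjusted p was 0.192. Of the listed inhibitors 2 passed, against 0 with the block, 1 without cross-matching probe sets, 5 with weights and 0 to 3 with 1 array left out. With weights 1 sorting gene passed, and 2 matrix genes passed with weights and 2 with the trend. Of all probe sets 73 passed, against 8 with the block, 24 with quantile normalization, 35 without cross-matching ones, 148 with the trend, 446 with weights, 22 without both arrays and 7 to 78 with 1 array left out. Of the 21 probe sets 1 passed with the trend and 1 with weights.

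Some differences that did not pass the test changed sign, and the cause was not tested. With array weights Ctsb was at 0.060, Ctsk at 0.037, Ctsl at 0.10, Ctsz at 0.25, Ppp1r7 at 0.031 and Sdcbp at 0.0015. With cyclic loess Ctsb was at 0.037 and Sdcbp at 0.052, and with equal medians Cst3 was at -0.0051 and Sptbn1 at -0.012. With the mean of probe sets Ctsc was at -0.041, Ctsl at 0.060 and Sptbn1 at -0.059, and Ctsl was at 0.34 without cross-matching ones. Without both arrays Ctsz was at 0.22, Cst3 at -0.0087, Sptbn1 at -0.020 and Nbl1 at -0.012. With 1 array left out, the ranges were -0.12 to 0.0010 for Ctsb, -0.31 to 0.16 for Ctsz, -0.054 to 0.057 for Cst3, -0.073 to 0.058 for Sptbn1, -0.075 to 0.027 for Sdcbp and -0.048 to 0.089 for Nbl1.

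Of the probe sets not used for a gene, the Ctsb one at -0.09 was at 0.0051 with loess, 0.021 with weights and -0.22 to 0.041 with 1 array left out. The Ctsb one at 0.00295 was at -0.014 with equal medians, -0.16 to 0.12 with 1 array left out and 0.21 without both arrays. The Ctsb one at -0.30 was at 0.012 with weights. The dim Ctsb one was at -0.13 with weights, -0.15 without both arrays and -0.08 to 0.27 with 1 array left out. The Ctsc one at -0.04 was at 0.19 with weights, 0.43 without both arrays and -0.24 to 0.34 with 1 array left out. The Ctsz one at -0.05 was at 0.050 with loess, 0.16 with weights, 0.12 without both arrays and -0.22 to 0.059 with 1 array left out. The Ctsz one at 0.08 was at -0.10 to 0.17 with 1 array left out and 0.23 without both arrays.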

Other observations

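The genes whose profiles over the 6 arrays were most like that of Ctss were Lyz1, Lyz2 and Il11. Likeness was the smallest Euclidean distance between log2 profiles centred on the mean of the gene, among 8868 genes at or above the median level, and the points share the 6 arrays and their normalisation. The distances were 0.80, 1.11 and 1.20. The lysozyme genes Lyz1 and Lyz2 are near-identical, so their probe sets may read both. Lyz1 was at 9.85, 9.90 and 11.83 in CAF, against 8.22, 6.70 and 6.31 in NDF, a difference of 3.45 ± 0.69 (limma adjusted p = 0.124). Il11, a cytokine of the interleukin 6 family, differed by 3.16 ± 0.61 (adjusted p = 0.110). For Ctsk the nearest were Itga9, Ppp1r7 and Eola1, at distances of 0.12, 0.17 and 0.20, with differences of -0.37, -0.27 and -0.36. For Cst3 they were Sptbn1, Sdcbp and Nbl1, at distances of 0.04, 0.06 and 0.08, with differences of 0.00, -0.02 and 0.03.

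Among 17 genes of matrix substrates and partners of cathepsins 0 passed the test in limma, with 2 higher and 2 lower in CAF at an unadjusted p under 0.05, and the median difference was -0.17. The elastin gene Eln was at 10.13, 10.41 and 9.90 in CAF, against 11.68, 11.05 and 11.50 in NDF, a difference of -1.27 ± 0.24 (adjusted p = 0.108). Plaur, the urokinase receptor, and Cdh1, the epithelial cadherin, differed by 0.95 and 1.58 (adjusted p = 0.265 and 0.298). Of 12 chondrocyte markers 0 passed and 7 were lower at an unadjusted p under 0.05, with a median of -0.67. At that p, 4.93% of all genes were higher and 4.02% lower in CAF. Medians were 0.76 for 10 mast cell markers, 0.23 for 8 melanocyte markers and -0.05 for 9 osteoclast markers, and 0 genes of these 3 lists passed, with 5, 1 and 1 higher at an unadjusted p under 0.05.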
